A study of Mus musculus with 36 samples.

Results

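AP-1 is a pair of DNA-binding proteins, one usually from the Fos family and one from the Jun family, that switches genes on or off after growth factors, stress or inflammatory signals. The genes described here are the Fos family (Fos, Fosb, Fosl1 and Fosl2), the Jun family (Jun, Junb and Jund) and 3 companions of the early response (Egr1, Ier2 and Ier3), 10 of the 46078 genes counted in every library. They were chosen by name, and each symbol matched 1 row of the count tables. RNA was sequenced from RM-1-BM, a mouse prostate cancer line, and from RAW264.7, a mouse macrophage line, in 36 libraries that form 12 groups of 3. The cancer cells had been transduced with SPOP carrying the F133V mutation or with the empty vector (EV). SPOP picks the proteins that a cullin ubiquitin ligase marks for breakdown. The cancer cells were grown opposite RAW264.7 macrophages in a transwell, where a membrane parts the cells and medium is shared, or alone, with either olaparib, a drug that blocks the DNA repair enzymes PARP1 and PARP2, or its vehicle DMSO. That gives F133V cells in coculture with olaparib or DMSO, F133V cells alone with olaparib or DMSO, and the same 4 groups of vector cells. The other 4 groups are the macrophages of the cocultures, opposite F133V or vector cells, with olaparib or DMSO. Their partner was taken from the samples' group entry, and the other labels differ from it in 2 places. The titles of the macrophages opposite vector cells with olaparib name no partner, and the genotype entry of macrophages opposite F133V cells gives the mutant with DMSO but wild type with olaparib. For the macrophages opposite vector cells with olaparib, the partner therefore rests on the group entry alone. All cancer cells were transduced and all macrophages had been in coculture, so untransduced cancer cells and macrophages grown alone were not analysed here. The sources used here do not give the promoter of the construct, whether the transduced cells were a pool or 1 clone, the dose of olaparib or the length of treatment.

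Gene counts per library ran from 32063028 to 43062440 in cancer cells and from 30292309 to 37340425 in macrophages. Levels are given in CPM (a gene's counts relative to all gene counts of its library, with TMM factors within a cell type), in the order of replicates 1, 2 and 3. Changes are log2 fold changes ± SE, and a gene was called at an adjusted p under 0.05 (edgeR's quasi-likelihood test, Benjamini-Hochberg over all genes tested in that comparison). Whether a group's 3 libraries are separate cultures is not stated, so p-values measure only the spread among these libraries, which may be technical. Where 2 groups are said not to overlap, this describes their libraries, and the share of all genes tested without overlap was not counted. Macrophage markers (12 genes) summed to 10.9 to 22.3 CPM in cancer libraries and to 12359 to 14483 CPM in macrophage libraries, and 5 epithelial markers summed to 63.9 to 372 CPM in cancer libraries and to at most 0.236 CPM in macrophages. Within the epithelial list Krt18 led in cancer cells, while the adhesion proteins Epcam and Cdh1 stayed below 1 CPM in every cancer group, and Cdh1 was at 0 in both F133V coculture groups, so these cells are called by their line. In 2 of the 3 libraries of vector cells alone with DMSO, Lyz2, an abundant macrophage lysozyme, read 3.38 and 4.36 CPM, against 0.700 in the third. Spop averaged 96.8 to 114 CPM in the F133V groups and 111 to 125 CPM in the vector groups, which does not by itself show the introduced mutant. F133V and vector cells are 2 transduced populations, and the mutant and any other difference between them cannot be told apart.

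Immediate early genes are transcribed within minutes of a signal, without new protein synthesis, and most of their messages decay as fast. ERK phosphorylates factors of the Elk group that sit with SRF on the promoters of Fos, Egr1 and Ier2, and JNK phosphorylates the Jun protein, which then raises its own gene. FOS and FOSB have strong activation domains and short-lived messages, whereas FOSL1 (FRA-1) and FOSL2 (FRA-2) accumulate later, last longer and are associated with migration and invasion of carcinoma cells. JUNB can oppose JUN on growth genes, and JUND is the Jun protein that many resting cells hold in largest amount. EGR1 is a zinc finger factor, IER2 a nuclear protein, and IER3 a small protein of stress and survival signalling that NF-kB and p53 induce. In macrophages AP-1 works beside the lineage factor PU.1 on enhancers of inflammatory genes.

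The Fos family genes lie on different chromosomes of the mouse genome (GRCm38, GENCODE M21): Fos at chr12:85473890-85477273 on the plus strand, Fosb at chr7:19302696-19310051 on the minus strand, Fosl1 at chr19:5447547-5455946 on the plus strand and Fosl2 at chr5:32135801-32157842 on the plus strand. Of the Jun family, Jun lies at chr4:95049034-95052222 on the minus strand, Junb at chr8:84974484-84978718 on the minus strand and Jund at chr8:70698949-70700616 on the plus strand. Ier2 lies at chr8:84661331-84662852 on the minus strand and Ier3 at chr17:35821684-35822923 on the plus strand. The counts cover the exons of each gene, and 4 members share exon sequence with a gene on the other strand: Fosl1 with Ccdc85b (1163 of 2033 exon bases), Jun with the antisense RNA Junos (232 bases), Junb with Prdx2 (173 bases) and Jund with the antisense RNA Gm11175 (877 of 1668 bases). The sources used here do not give the strand setting of the counting, so how reads from these stretches were assigned is uncertain.

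RefSeq promoters (GRCm38.p6) were matched for 7 members: Fos, Fosb, Fosl2, Jun, Junb, Jund and Ier3. The 250 bases before the start site are shown for 4 of the 7: Fos, Jun, Junb and Ier3. They run 5′ to 3′ on the gene's strand, and capitals mark 3 motifs that AP-1 and related factors can bind: TGANTCA, TGACATCA and TGACG, each searched on both strands.
Fos, chr12:85473640-85473889, plus strand: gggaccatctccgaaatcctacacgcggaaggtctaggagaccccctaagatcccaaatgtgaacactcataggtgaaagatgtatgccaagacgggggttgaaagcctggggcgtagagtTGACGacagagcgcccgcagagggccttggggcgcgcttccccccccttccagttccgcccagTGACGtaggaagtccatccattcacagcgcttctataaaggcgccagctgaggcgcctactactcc
Jun, chr4:95052223-95052472, minus strand: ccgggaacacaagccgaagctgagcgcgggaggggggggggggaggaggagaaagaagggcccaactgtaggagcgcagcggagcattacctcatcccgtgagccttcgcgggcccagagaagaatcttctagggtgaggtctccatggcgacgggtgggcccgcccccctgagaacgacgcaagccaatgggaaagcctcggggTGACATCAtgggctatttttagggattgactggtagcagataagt
Junb, chr8:84978749-84978998, minus strand: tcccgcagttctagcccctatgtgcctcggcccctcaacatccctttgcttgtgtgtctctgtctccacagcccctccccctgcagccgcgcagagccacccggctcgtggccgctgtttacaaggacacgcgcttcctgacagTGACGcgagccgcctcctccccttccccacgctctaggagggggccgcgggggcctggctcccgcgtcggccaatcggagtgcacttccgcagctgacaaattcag
Ier3, chr17:35821463-35821712, plus strand: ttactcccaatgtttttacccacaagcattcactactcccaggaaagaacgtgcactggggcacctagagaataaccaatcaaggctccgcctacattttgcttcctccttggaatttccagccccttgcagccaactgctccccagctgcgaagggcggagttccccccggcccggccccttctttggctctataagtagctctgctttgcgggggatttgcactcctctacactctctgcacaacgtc
The Fos window holds TGACG at 2 places and a TATAAA box, the Jun window holds 1 TGACATCA, the element through which JUN is known to act on its own gene, and the Junb window holds 1 TGACG. The Ier3 window holds none of the 3 motifs. Over the 7 members TGANTCA was found in 0, TGACATCA in 1 and TGACG in 3, against 6.7%, 2.9% and 17.8% of all 32851 RefSeq promoters of this length. GGGCGG was found in 5 of 7 (32.7% of all), CCAAT in 3 (33.8%), TATAAA in 1 (12.4%) and the CArG box of SRF in 0 (1.5%). The RefSeq start lies 1210 bases from the GENCODE start for Jund and 671 bases from it for Fosl2, so these 2 windows do not sit at the gene starts given above. A motif is a match of letters in this window and says nothing of binding.

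**Figure D1:**
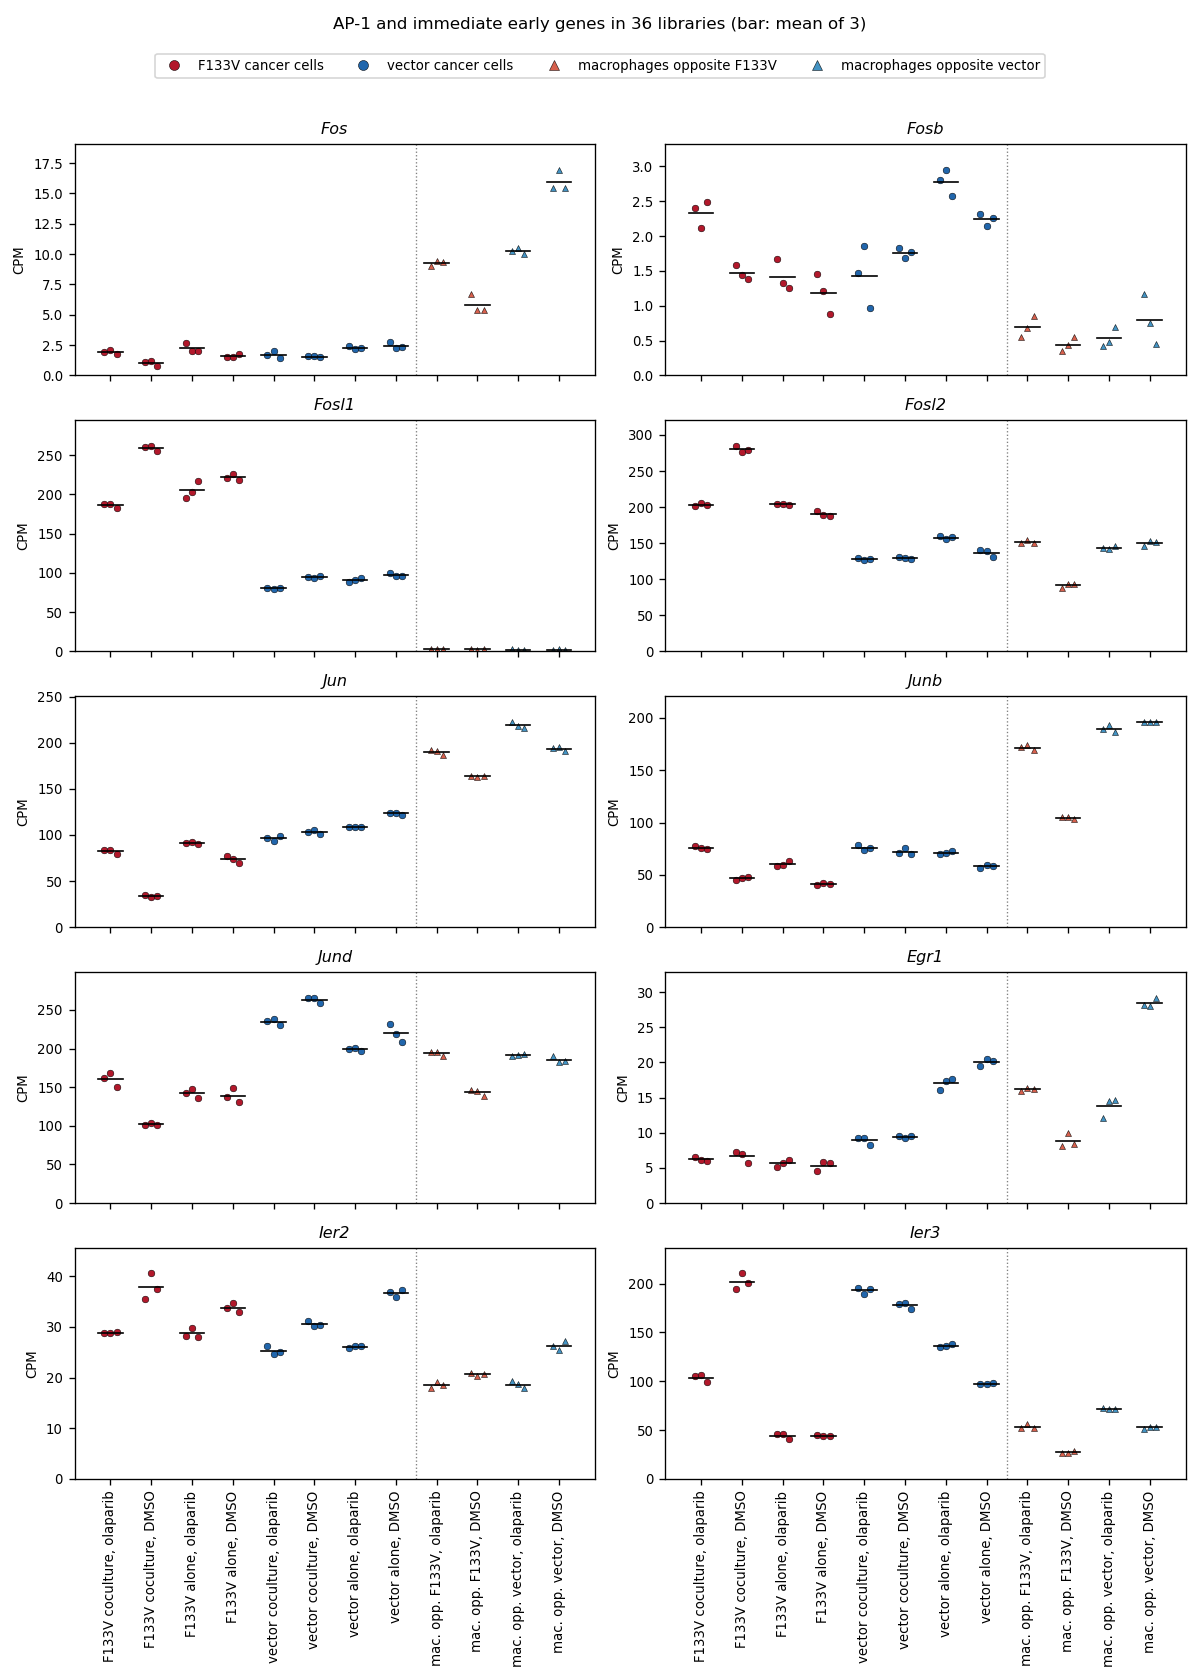
CPM (linear axes from 0) of the 10 genes in all 36 libraries, 1 panel a gene; each point is a library, bars are means of 3, circles are cancer cells and triangles macrophages, and each cell type was scaled on its own. Fosl1 lies above 180 CPM in all 12 F133V libraries and below 100 CPM in all 12 vector libraries, and Jun is lowest in F133V cells in coculture with DMSO.

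Grown alone with DMSO, F133V cells held more Fosl1 and Fosl2 message than vector cells and less of the other 8 genes. The rule of an adjusted p under 0.05 called all 10 (2 higher, 8 lower), and 67.7% of the 15962 genes tested were called, 33.7% higher and 34% lower. Since most genes differed between the 2 populations, the count of calls by itself says little about these genes, and the sizes are given. Their median change was −0.64, against 0.00 over all genes tested. Fosl1 stood at 221, 226 and 218 CPM in F133V cells, against 99.4, 95.7 and 95.5 CPM in vector cells. Every F133V library held over 2 times the highest vector value (1.20 ± 0.03, adjusted p = 1.5e-30). Fosl2 stood at 194, 189 and 188 CPM in F133V cells, against 141, 139 and 131 CPM in vector cells, a smaller rise with no overlap (0.47 ± 0.02, adjusted p = 1.6e-19). The rapidly induced Fos family genes went the other way but were scarce, with Fos at 1.60 ± 0.163 CPM in F133V cells and 2.47 ± 0.250 CPM in vector cells (−0.63 ± 0.16, adjusted p = 0.00056). Fosb fell too (−0.92 ± 0.18, adjusted p = 2.3e-05), at 1.18 ± 0.292 CPM in F133V cells and 2.24 ± 0.0904 CPM in vector cells (SD, n = 3 each, here and below).

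In the Jun family all members were lower in F133V cells alone with DMSO. Jun read 76.7, 74.3 and 70.0 CPM in F133V cells, against 124, 124 and 122 CPM in vector cells (−0.74 ± 0.03, adjusted p = 4.1e-23). Jund read 137, 149 and 130.4 CPM in F133V cells, against 232, 218 and 209 CPM in vector cells (−0.66 ± 0.04, adjusted p = 2.0e-18). Junb changed less (−0.48 ± 0.04, adjusted p = 2.2e-14). For each of the 3 the highest F133V library lay below the lowest vector library. Egr1, at chr18:34859823-34864984 on the plus strand, was the most reduced of the 10, with 4.50, 5.86 and 5.65 CPM in F133V cells against 19.5, 20.5 and 20.2 CPM in vector cells (−1.90 ± 0.08, adjusted p = 4.3e-23). Ier3 followed, with 44.5, 43.4 and 44.1 CPM in F133V cells against 97.3, 96.9 and 98.3 CPM in vector cells (−1.15 ± 0.04, adjusted p = 1.4e-26). Both genes were over 2-fold lower in every F133V library than in any vector library. Ier2 differed little (−0.12 ± 0.04, adjusted p = 0.012), was not called without replicate 3 of F133V cells alone with DMSO (−0.10, adjusted p = 0.063), and stood at −0.21 when scaled by library size alone.

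In coculture with DMSO the excess of Fosl2 in F133V cells was wider and the shortage of Jun and Jund deeper than in cells alone. The excess of Fosl1 was wider too with TMM, but its widening was not called with library size alone (0.09, adjusted p = 0.056). Of the 10 genes, 9 were called (4 higher, 5 lower), and 79.5% of the 15962 genes tested were called, 37.4% higher and 42% lower. Fosl1 stood at 259.8, 262 and 255 CPM in F133V cells, against 94.8, 93.6 and 96.2 CPM in vector cells (1.45 ± 0.03, adjusted p = 1.2e-33). Fosl2 stood at 285, 277 and 279 CPM in F133V cells, against 131, 130.0 and 128 CPM in vector cells (1.11 ± 0.02, adjusted p = 4.0e-32). Both were over 2-fold higher in every F133V library than in any vector library. Jun stood at 34.6, 33.3 and 33.9 CPM in F133V cells, against 103, 106 and 101 CPM in vector cells (−1.61 ± 0.03, adjusted p = 1.0e-32). Jund stood at 102, 104 and 101 CPM in F133V cells, against 266, 266 and 259 CPM in vector cells (−1.37 ± 0.04, adjusted p = 1.2e-28). These were the lowest Jun and Jund levels of any group in the series. Junb fell as well (−0.63 ± 0.04, adjusted p = 2.0e-18), at 46.8 ± 1.63 CPM in F133V cells and 72.2 ± 3.44 CPM in vector cells.

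The 3 companions did not move together in that comparison. Egr1 was lower in F133V cells, at 7.21, 6.96 and 5.73 CPM against 9.53, 9.27 and 9.57 CPM in vector cells (−0.50 ± 0.08, adjusted p = 1.5e-06, and −0.75 when scaled by library size alone). Ier2 was higher at 37.8 ± 2.55 CPM in F133V cells and 30.6 ± 0.519 CPM in vector cells (0.31 ± 0.04, adjusted p = 1.6e-08), but was not called with library size alone (0.06, adjusted p = 0.21). Ier3 read 194, 210.4 and 200.2 CPM in F133V cells, against 179, 180.3 and 174 CPM in vector cells. Its small difference was called as higher (0.18 ± 0.03, adjusted p = 1.8e-06) and as lower with library size alone (−0.07, adjusted p = 0.034), so it has no settled direction. That scaling moved the median of all genes to −0.31, against −0.06 with TMM. Fos fell (−0.57 ± 0.19, adjusted p = 0.0059) at about 1 CPM in F133V cells, and Fosb was not called (−0.25 ± 0.18, adjusted p = 0.21), although it was with library size alone (−0.50, adjusted p = 0.012).

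Other RNA moved with genotype in these libraries. The transcript Gm26917, chosen after its values were seen, averaged 41532 CPM in F133V cells in coculture and 38737 CPM alone with DMSO, against 2561 and 1895 CPM in the matching vector cells. Rn7sk, the RNA that restrains the elongation factor P-TEFb, averaged 267 and 188 CPM in the same F133V groups, against 11.3 and 9.00 CPM in vector cells. With olaparib, Gm26917 fell to 4929 CPM in F133V cells in coculture and 13733 CPM alone. The 5 epithelial markers summed to 346 to 372 CPM in F133V cells in coculture with DMSO, nearly all of it Krt18, and to at most 181 CPM in the other cancer groups. The list itself went the other way there. Of the 4 epithelial markers tested, 1 was called higher and 3 lower in F133V than in vector cells in coculture with DMSO (median −2.17). The 5 mesenchymal markers summed to 2500 to 5169 CPM over the F133V groups, against 5563 to 11288 CPM over the vector groups. Singly they were mixed. In coculture with DMSO 1 was higher and 2 lower in F133V cells (median −0.89). In coculture with olaparib 1 was higher and 2 lower as well (median 0.20). The antisense RNA Junos averaged 1.58 CPM in F133V cells and 8.17 CPM in vector cells in coculture with DMSO, and Gm11175, antisense to Jund, averaged 1.87 CPM in F133V cells and 4.00 CPM in vector cells. Prdx2, which overlaps Junb, averaged 71.7 CPM in F133V cells and 140 CPM in vector cells in coculture with DMSO. Junos, Gm11175 and Prdx2 were thus lower in F133V cells, in the same direction as Jun, Jund and Junb. Ccdc85b, which overlaps Fosl1, averaged 6.45 CPM in F133V cells and 18.4 CPM in vector cells, opposite in direction to Fosl1. The part of these differences in the results was not tested.

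With olaparib Fosl1 stayed over 2-fold higher in F133V cells, while Jun differed by little. In cells alone with olaparib 9 of 10 were called (3 higher, 6 lower), and 67.4% of the 15962 genes tested were called, 34.3% higher and 33.2% lower. In coculture with olaparib 8 of 10 were called (4 higher, 4 lower), and 60% of the 15962 genes tested were called, 28.8% higher and 31.2% lower. Fosl1 was higher in F133V cells in both settings (1.17 ± 0.03 alone and 1.22 ± 0.03 in coculture), and so was Fosl2 (0.37 ± 0.02 and 0.67 ± 0.02). Jun differed by −0.24 ± 0.03 alone and −0.23 ± 0.03 in coculture, with 83.9, 83.9 and 79.7 CPM in F133V cells against 97.2, 93.5 and 99.2 CPM in vector cells in coculture. Jund stayed lower (−0.49 ± 0.04 alone, −0.55 ± 0.04 in coculture). Ier3 was lower in F133V cells both alone (−1.62 ± 0.04) and in coculture (−0.90 ± 0.03), where it read 106, 106 and 99.0 CPM, against 196, 189 and 194 CPM in vector cells. Egr1 remained lower (−1.60 ± 0.08 alone, −0.52 ± 0.08 in coculture) and Ier2 was slightly higher (0.14 ± 0.04 and 0.19 ± 0.04). Fosb was lower in F133V cells alone (−0.96 ± 0.17) and higher in coculture (0.70 ± 0.17). Junb was lower alone (−0.24 ± 0.04) and was not called in coculture (adjusted p = 0.99), and Fos was called in neither setting (adjusted p = 0.87 alone and 0.34 in coculture).

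**Figure D2:**
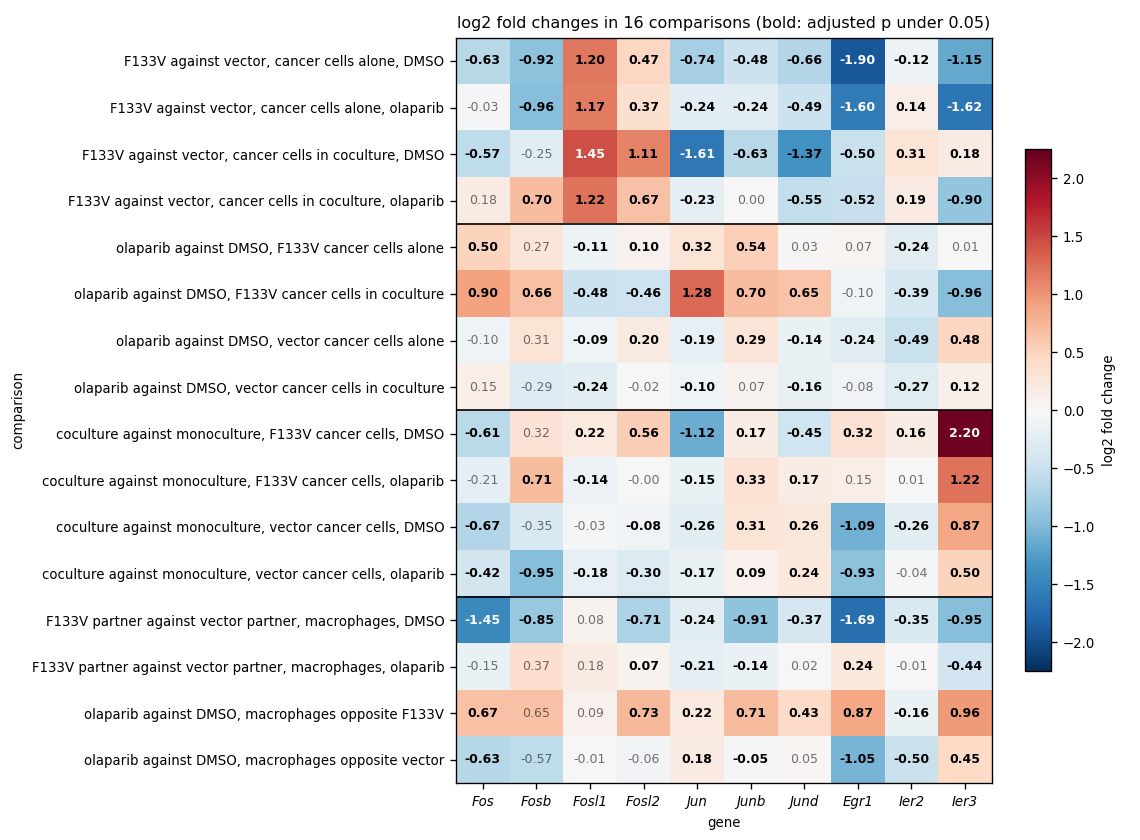
Log2 fold changes of the 10 genes (columns) in the 16 comparisons of 2 groups within a cell type (rows, numerator named first); red is higher, blue lower, and bold marks an adjusted p under 0.05. Fosl1 and Fosl2 are red in all 4 rows of F133V against vector cancer cells, and in macrophages with DMSO 9 of the 10 columns are bold and blue.

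Levels of different genes can be set side by side only per length, so each gene's CPM was divided by its exon length in kb. That length counts every annotated exon base of a gene once (9680 for Fosl2, 2033 for Fosl1), whichever transcripts the cells make. The shares and ratios below depend on it. Within the Fos family Fosl1 held 80.5% to 84.2% of the summed level per kb in the 4 F133V groups and 71.6% to 76.5% in the 4 vector groups. Fosl2 held most of the rest, and Fos and Fosb together stayed near or below 2% in each cancer group. Jund led the Jun family, with 60.7% to 66.9% in F133V groups and 64.7% to 71.2% in vector groups. The message of the Fos family relative to that of the Jun family, both summed per kb, was 1.73, 1.70 and 1.68 in F133V cells in coculture with DMSO, against 0.275, 0.268 and 0.283 in vector cells. In cells alone with DMSO it was 1.05, 1.00 and 1.08 in F133V cells, against 0.321, 0.321 and 0.327 in vector cells. With olaparib it was 0.729, 0.717 and 0.760 in F133V cells in coculture and 0.852, 0.849 and 0.938 in F133V cells alone, against 0.260, 0.260 and 0.267 and 0.334, 0.337 and 0.346 in the matching vector groups. F133V and vector libraries did not overlap in any of these 4 settings, and F133V cells in coculture with DMSO were the one cancer group with clearly more Fos than Jun family message. The ratio restates the members' own levels and was not tested, and it carries the uncertainty of the exons that Fosl1 and Jund share with other genes.

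**Figure D3:**
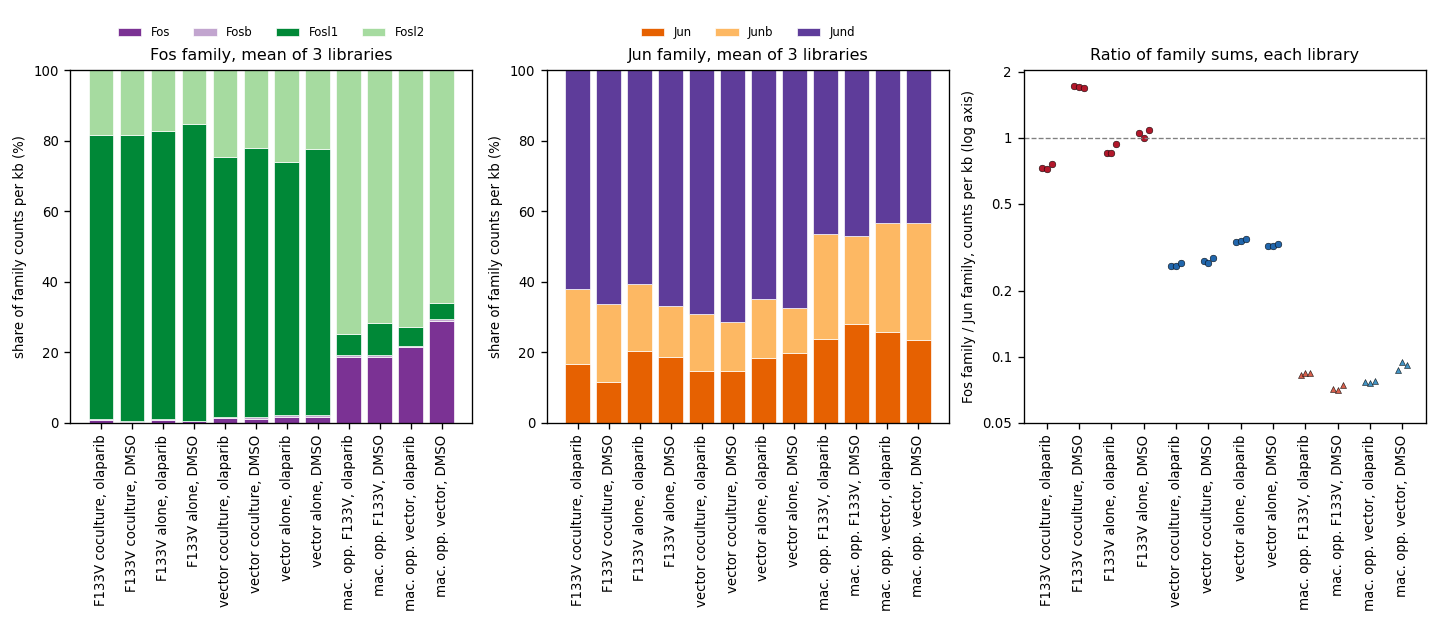
Left and middle: mean share (%) of each gene in the level per kb of the Fos and Jun families in 12 groups; right: ratio of the 2 family sums in every library (log axis, dashed line at 1, colours and symbols as in the plot of CPM by library). Fosl1 fills 71.6% to 84.2% of the Fos family in cancer cells and 4.7% to 8.9% in macrophages, and the ratio is above 1.6 only in F133V cells in coculture with DMSO.

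Coculture changed the early response genes of F133V and vector cells differently. In F133V cells with DMSO 9 of 10 were called (6 higher, 3 lower), and 70.3% of the 15962 genes tested were called, 35.6% higher and 34.8% lower. Scaled by library size alone, 5 of the 10 were called, and the share of all genes called with that scaling is not given here. Ier3 rose most, and stood at 194, 210.4 and 200.2 CPM in coculture, against 44.5, 43.4 and 44.1 CPM alone (2.20 ± 0.04). Jun fell to 34.6, 33.3 and 33.9 CPM in coculture, against 76.7, 74.3 and 70.0 CPM alone (−1.12 ± 0.04, adjusted p = 1.8e-26). The lowest library alone held over 2 times the highest coculture library. Fosl2 rose (0.56 ± 0.02, adjusted p = 3.6e-22, or 0.35 with library size alone), with 285, 277 and 279 CPM in coculture against 194, 189 and 188 CPM alone. Jund fell (−0.45 ± 0.04, adjusted p = 1.2e-12), as did Fos (−0.61 ± 0.19, adjusted p = 0.0043). Fosl1 (0.22 ± 0.03), Junb (0.17 ± 0.04) and Ier2 (0.16 ± 0.04) were called as slightly higher. With library size alone these calls were lost, at 0.01, −0.04 and −0.05, so Junb and Ier2 have no settled direction. Without replicate 2 of F133V cells in coculture with DMSO, Ier2 stood at 0.11. Egr1 (0.32 ± 0.09, adjusted p = 0.0031) overlapped between the groups, with 7.21, 6.96 and 5.73 CPM in coculture and 4.50, 5.86 and 5.65 CPM alone, and was not called without replicate 1 of F133V cells alone (0.21, adjusted p = 0.054) or with library size alone (0.11, adjusted p = 0.31).

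In vector cells with DMSO 8 of 10 were called (3 higher, 5 lower), and 42% of the 15962 genes tested were called, 23.4% higher and 18.6% lower. Egr1 was the gene that fell furthest, to 9.53, 9.27 and 9.57 CPM in coculture, against 19.5, 20.5 and 20.2 CPM alone, with no overlap (−1.09 ± 0.07). Ier3 rose by a smaller step than in F133V cells, with 179, 180.3 and 174 CPM in coculture against 97.3, 96.9 and 98.3 CPM alone (0.87 ± 0.03, adjusted p = 1.7e-23). Junb (0.31 ± 0.03) and Jund (0.26 ± 0.04) rose, while Fos (−0.67 ± 0.15), Jun (−0.26 ± 0.03) and Ier2 (−0.26 ± 0.04) fell. Jund thus rose in vector cells and fell in F133V cells. Fosl2 was called as barely lower (−0.08 ± 0.03). That call was lost without replicate 1 (−0.06) or replicate 2 (−0.07) of vector cells alone with DMSO, and without both of these libraries, the ones with more Lyz2, it stood at −0.01. With library size alone it stood at −0.13. Fosl1 was not called (adjusted p = 0.45), nor was Fosb (−0.35 ± 0.16), although Fosb was with library size alone (−0.40, adjusted p = 0.049) and with only the groups compared (−0.36, adjusted p = 0.047).

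The difference between the 2 coculture effects was itself tested, as the change in F133V cells minus that in vector cells. Of the 10 genes, 9 were called, against 62.7% of all genes tested. Egr1 had the largest such difference (1.40 ± 0.12, adjusted p = 2.4e-13), followed by Ier3 (1.33 ± 0.05, adjusted p = 3.1e-24), Jun (−0.86 ± 0.05, adjusted p = 5.4e-19) and Jund (−0.71 ± 0.05, adjusted p = 2.0e-14). For Egr1 the vector cells fell, while the slight rise in F133V cells overlapped between groups and was not called with library size alone (0.11, adjusted p = 0.31). For Jun the F133V cells moved about 4 times as far on the log2 scale. Fosl2 differed by 0.64 ± 0.04, Ier2 by 0.43 ± 0.06 and Fosl1 by 0.25 ± 0.04, the last not called with library size alone (0.09, adjusted p = 0.056). Fos was not called (adjusted p = 0.86), and had fallen by a like amount in both. The step for Fosb (0.67 ± 0.26) was lost with library size alone (0.51, adjusted p = 0.086), and without replicate 1 of F133V cells in coculture with DMSO (0.62, adjusted p = 0.055) or replicate 3 of F133V cells alone with DMSO (0.50, adjusted p = 0.10). The step for Junb (−0.14 ± 0.05) was lost without replicate 2 of vector cells (−0.11, adjusted p = 0.078) or replicate 1 of F133V cells (−0.11, adjusted p = 0.095), both in coculture with DMSO. It was also lost with DESeq2 (adjusted p = 0.11), RLE scaling (adjusted p = 0.086) and protein-coding genes only (adjusted p = 0.092), and stood at −0.31 with library size alone. The step for Ier2 stood at 0.26 with library size alone. Without the 2 vector libraries with more Lyz2, neither Fosb (0.67, adjusted p = 0.074) nor Junb (−0.15, adjusted p = 0.056) was called.

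With olaparib the coculture effects kept Ier3 as the gene that rose most. In F133V cells 6 of 10 were called (4 higher, 2 lower), and 53.2% of the 15962 genes tested were called, 26.7% higher and 26.5% lower. In vector cells 9 of 10 were called (3 higher, 6 lower), and 44.1% of the 15962 genes tested were called, 25.5% higher and 18.5% lower. Ier3 stood at 106, 106 and 99.0 CPM in F133V cells in coculture, against 46.1, 46.2 and 40.8 CPM alone (1.22 ± 0.04, adjusted p = 4.4e-27). In vector cells it stood at 196, 189 and 194 CPM in coculture, against 135, 136 and 139 CPM alone (0.50 ± 0.03, adjusted p = 1.3e-16). The rise was about 2-fold in F133V cells and smaller in vector cells. Jun, so low in F133V cocultures with DMSO, changed little with olaparib (−0.15 ± 0.03 in F133V cells, −0.17 ± 0.03 in vector cells). Fosb rose in F133V cells (0.71 ± 0.17) and fell in vector cells (−0.95 ± 0.17), at 0.962 to 2.95 CPM in these 4 groups. Egr1 fell in vector cells (−0.93 ± 0.07) and was not called in F133V cells (0.15 ± 0.09). In vector cells the small calls of Fos (−0.42 ± 0.15) and Junb (0.09 ± 0.03) were each lost in 3 of the fits that left out 1 library. For Fos these were replicate 1 (−0.40) or replicate 3 (−0.31) of vector cells in coculture with olaparib and replicate 1 alone with olaparib (−0.37). For Junb they were replicate 1 in coculture (0.07) and replicates 1 (0.08) and 2 (0.09) alone. Fos was also not called with no filter on low counts (adjusted p = 0.056), nor Junb with DESeq2 (adjusted p = 0.10), library size alone (adjusted p = 0.12), protein-coding genes only (adjusted p = 0.13) or RLE scaling (adjusted p = 0.076). The changes in Fosl1, Fosl2, Jund and Junb that were called in these 2 comparisons lay between −0.30 and 0.33. With library size alone the changes in F133V cells were −0.22 for Fosl1, −0.23 for Jun and 0.10 for Jund.

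In F133V cells in coculture the Jun family was higher with olaparib than with DMSO, and Fosl1, Fosl2 and Ier3 were lower. There 9 of 10 genes were called (5 higher, 4 lower), and 76.3% of the 15962 genes tested were called, 39.3% higher and 37% lower. Since most genes were called, the count by itself says little about these 10. Jun rose to 83.9, 83.9 and 79.7 CPM with olaparib, against 34.6, 33.3 and 33.9 CPM with DMSO (1.28 ± 0.03, adjusted p = 4.4e-29). Jund rose to 162, 168 and 150.3 CPM with olaparib, against 102, 104 and 101 CPM with DMSO (0.65 ± 0.04, adjusted p = 8.2e-18), and Junb to 77.6, 75.4 and 74.9 CPM, against 45.0, 47.1 and 48.2 CPM (0.70 ± 0.04, adjusted p = 5.9e-20). All Jun family genes, which were low in F133V cocultures with DMSO, were thus higher with olaparib. Fos rose (0.90 ± 0.18, adjusted p = 2.3e-05) to 1.95 ± 0.177 CPM with olaparib, against 1.03 ± 0.214 CPM with DMSO, and Fosb rose too (0.66 ± 0.17, adjusted p = 0.00087). Fosl1 fell to 188, 187 and 183 CPM with olaparib, against 259.8, 262 and 255 CPM with DMSO (−0.48 ± 0.03, adjusted p = 1.5e-18), and Fosl2 fell by a like step (−0.46 ± 0.02). The members of the Fos family therefore moved in opposite directions, the scarce ones up and the abundant ones down. Ier3 fell to 106, 106 and 99.0 CPM with olaparib, against 194, 210.4 and 200.2 CPM with DMSO (−0.96 ± 0.03, adjusted p = 2.7e-26), and Ier2 fell (−0.39 ± 0.04). Scaled by library size alone, which moved the median of all genes to 0.23 here against 0.02 with TMM, the falls were −0.27 for Fosl1, −0.26 for Fosl2 and −0.19 for Ier2, each still called. Egr1 was not called (−0.10 ± 0.09).

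In the other cancer cultures fewer of these genes were called with olaparib, and fewer of all genes tested as well. In F133V cells alone 6 of 10 were called (4 higher, 2 lower), and 36.2% of the 15962 genes tested were called, 18.2% higher and 17.9% lower. Junb (0.54 ± 0.04) and Jun (0.32 ± 0.03) rose, with Jun at 91.8, 92.7 and 90.6 CPM with olaparib against 76.7, 74.3 and 70.0 CPM with DMSO. Ier2 fell (−0.24 ± 0.04), and Fosl2 (0.10 ± 0.02, or 0.17 with library size alone) and Fosl1 (−0.11 ± 0.03) were called at small sizes, of which that of Fosl1 was lost with library size alone (−0.04). Fos was called (0.50 ± 0.16, adjusted p = 0.014), but not without replicate 1 of F133V cells alone with olaparib (0.34, adjusted p = 0.15) or replicate 2 with DMSO (0.45, adjusted p = 0.062). Ier3 and Jund were not called (adjusted p = 0.84 and 0.61). In vector cells alone 8 of 10 were called (3 higher, 5 lower), and 30.4% of the 15962 genes tested were called, 15.3% higher and 15.1% lower. Ier3 rose to 135, 136 and 139 CPM with olaparib, against 97.3, 96.9 and 98.3 CPM with DMSO (0.48 ± 0.03, adjusted p = 3.9e-15), and Ier2 fell to 25.8, 26.1 and 26.2 CPM, against 36.9, 35.8 and 37.3 CPM (−0.49 ± 0.04, adjusted p = 2.2e-12). Both moved with no overlap. Junb (0.29 ± 0.03) and Fosl2 (0.20 ± 0.03) rose, and Jun (−0.19 ± 0.03) fell. Egr1 (−0.24 ± 0.06), Jund (−0.14 ± 0.04) and Fosl1 (−0.09 ± 0.03) were called as lower, but not without the 2 vector libraries with more Lyz2 (−0.25, −0.07 and −0.07). For Fosl1 leaving out replicate 1 with DMSO (−0.07) or replicate 1 with olaparib (−0.07) also ended the call.

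In vector cells in coculture fewer genes changed with olaparib: 5 of 10 were called (1 higher, 4 lower), and 23.6% of the 15962 genes tested were called, 12.6% higher and 10.9% lower. Fosl1 fell to 80.1, 79.0 and 81.2 CPM with olaparib, against 94.8, 93.6 and 96.2 CPM with DMSO (−0.24 ± 0.03, adjusted p = 7.4e-08). Ier2 (−0.27 ± 0.04) and Jund (−0.16 ± 0.04) fell and Ier3 rose (0.12 ± 0.03). The change in Jun (−0.10 ± 0.03) was not called without replicate 2 with DMSO (−0.08, adjusted p = 0.098) or replicate 2 with olaparib (−0.07, adjusted p = 0.12). Fosl2, so changed by olaparib in F133V cocultures, was not called here (adjusted p = 0.71).

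Whether olaparib acted differently in F133V and vector cells was tested as an interaction, the olaparib change in F133V cells minus that in vector cells. In coculture 8 of 10 were called, against 67.4% of all genes. Jun led (1.38 ± 0.05, adjusted p = 1.2e-25), then Ier3 (−1.08 ± 0.04, adjusted p = 7.3e-23), Jund (0.81 ± 0.05, adjusted p = 1.7e-16) and Junb (0.63 ± 0.05, adjusted p = 4.3e-14). Ier3 moved in opposite directions in the 2 populations, down in F133V cells and slightly up in vector cells. Fosl2 (−0.45 ± 0.04) and Fosl1 (−0.23 ± 0.04) fell further in F133V cells, and the step for Fosl1 was lost with library size alone (−0.03, adjusted p = 0.57), where Fosl2 stood at −0.24. Ier2 was not called (−0.12 ± 0.06), but was without replicate 1 of F133V cells in coculture with DMSO (−0.15, adjusted p = 0.021), with DESeq2 (adjusted p = 0.049), RLE scaling (adjusted p = 0.029) and protein-coding genes only (adjusted p = 0.017). It had the opposite sign with library size alone (0.08, adjusted p = 0.23). In cells alone 8 of 10 were called, against 24.2%, led by Jun (0.50 ± 0.04, adjusted p = 1.0e-11) and Ier3 (−0.47 ± 0.05, adjusted p = 4.7e-09). Without replicate 1 of F133V cells alone with DMSO 5 of 10 were called, and the share of all genes called in that fit is not given here. Fewer of the 10 were also called without the 2 vector libraries with more Lyz2. The call of Egr1 (0.31 ± 0.12) was lost in 7 of the 12 fits that left out 1 library. It stood at 0.20 without replicate 1 of F133V cells with DMSO, and at 0.25 to 0.32 without replicate 2 or 3 of vector cells with DMSO, replicate 1 or 2 of vector cells with olaparib, or replicate 2 or 3 of F133V cells with olaparib. The call of Fos (0.60 ± 0.22) was lost in 6. It stood at 0.44 without replicate 1 of F133V cells with olaparib, and at 0.51 to 0.58 without replicate 1 of vector cells with DMSO, replicate 2 or 3 of vector cells with olaparib, or replicate 1 or 2 of F133V cells with DMSO. Fosl2 (−0.11 ± 0.04) was not called without replicate 3 of vector cells with DMSO (−0.07), replicate 1 of vector cells with olaparib (−0.10) or replicate 1 of F133V cells with DMSO (−0.09). It stood at −0.01 with library size alone (adjusted p = 0.87) and at −0.17 without the 2 vector libraries with more Lyz2, and was not called with no filter on low counts (adjusted p = 0.061) or only the groups compared (adjusted p = 0.065). Jund (0.17 ± 0.05) was not called without replicate 1 of vector cells (0.13) or replicate 3 of F133V cells (0.13), both with DMSO, or without the 2 libraries with more Lyz2 (0.10), and stood at 0.27 with library size alone. The calls of Egr1 and Fos were also lost with DESeq2 (adjusted p = 0.054 and 0.064), with no filter on low counts (adjusted p = 0.067 and 0.076) and without the 2 libraries with more Lyz2 (adjusted p = 0.12 and 0.20). That of Egr1 was lost too with RLE scaling (adjusted p = 0.052) and only the groups compared (adjusted p = 0.067). Within F133V cells, the olaparib change in coculture minus that alone was called for 7 of 10, against 64.5% of all genes, with Jun at 0.97 ± 0.05, Ier3 at −0.97 ± 0.05, Jund at 0.62 ± 0.06 and Fosl2 at −0.56 ± 0.03. The small difference for Ier2 (−0.16 ± 0.06) was lost without replicate 2 in coculture with DMSO (−0.09), replicate 3 alone with DMSO (−0.14) or replicate 2 alone with olaparib (−0.13). It was also lost with library size alone (−0.02, adjusted p = 0.76), no filter on low counts (adjusted p = 0.20) and only the groups compared (adjusted p = 0.13). Library size alone gave −0.23 for Fosl1, against −0.36 ± 0.04 with TMM, and 0.30 for Junb, against 0.16 ± 0.05. Fos, not called (0.40 ± 0.24), was called without replicate 1 alone with olaparib (0.56, adjusted p = 0.048). These interactions share the F133V groups, so their values are not independent of one another.

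Macrophages opposite F133V cells held less of nearly every early response message than macrophages opposite vector cells when the cultures received DMSO. None of the 10 was called as higher and 9 as lower, and 53.6% of the 14262 genes tested were called, 25.5% higher and 28.1% lower. Their median was −0.78, against −0.01 over all genes tested. Egr1 stood at 8.07, 10.0 and 8.38 CPM opposite F133V cells, against 28.2, 28.1 and 29.2 CPM opposite vector cells (−1.69 ± 0.06, adjusted p = 2.1e-28). Fos stood at 6.72, 5.42 and 5.37 CPM opposite F133V cells, against 15.4, 16.9 and 15.4 CPM opposite vector cells (−1.45 ± 0.08, adjusted p = 8.6e-23). For both, the lowest library opposite vector cells held over 2 times the highest opposite F133V cells. Junb fell to 105, 105 and 104 CPM opposite F133V cells, against 196, 196 and 196 CPM opposite vector cells (−0.91 ± 0.02, adjusted p = 1.1e-37). Ier3 fell to 27.0, 26.8 and 28.1 CPM opposite F133V cells, against 51.5, 53.5 and 53.0 CPM opposite vector cells (−0.95 ± 0.04, adjusted p = 5.2e-28). Fosl2 was lower as well, with 87.7, 93.3 and 93.5 CPM opposite F133V cells against 145, 153 and 151 CPM opposite vector cells (−0.71 ± 0.02, adjusted p = 6.0e-30). The libraries of the 2 groups did not overlap for any of these. Jund (−0.37 ± 0.02), Ier2 (−0.35 ± 0.05) and Jun (−0.24 ± 0.02) fell by less. Fosb was called (−0.85 ± 0.32, adjusted p = 0.021) at under 1.2 CPM with overlapping groups. It was not called without replicate 1 opposite vector cells (−0.47, adjusted p = 0.31), replicate 1 (−0.71, adjusted p = 0.091) or replicate 2 (−0.83, adjusted p = 0.052) opposite F133V cells, or with DESeq2 (adjusted p = 0.051). Fosl1 was not called (adjusted p = 0.69) and stayed near 2 CPM. The 12 macrophage markers summed to 12450 to 12787 CPM opposite F133V cells, against 14220 to 14483 CPM opposite vector cells. Singly 3 of these markers were called higher and 7 lower opposite F133V cells (median −0.12). With olaparib the macrophage markers summed to 12359 to 12405 CPM opposite F133V cells, against 14050 to 14192 CPM opposite vector cells. The 5 mesenchymal markers, in macrophages nearly all Vim, summed to 1243 to 1279 CPM opposite F133V cells, against 2642 to 2731 CPM opposite vector cells. With olaparib they summed to 2704 to 2720 CPM opposite F133V cells, against 2669 to 2708 CPM opposite vector cells. Their part in these results was not tested. In a bulk culture fewer cells of a responding kind and less RNA per cell cannot be told apart.

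With olaparib the difference between partners was smaller for most of these genes. Of the 10 genes 5 were called (2 higher, 3 lower), and 35.2% of the 14262 genes tested were called, 17.6% higher and 17.6% lower. Ier3 stayed lower opposite F133V cells, at 51.7, 55.9 and 51.8 CPM against 72.4, 71.9 and 71.3 CPM opposite vector cells (−0.44 ± 0.03, adjusted p = 1.2e-16). Jun (−0.21 ± 0.02) and Junb (−0.14 ± 0.02, or −0.08 with library size alone) were slightly lower. Egr1 was higher (0.24 ± 0.07, adjusted p = 0.0032), but not without replicate 1 opposite vector cells (0.15, adjusted p = 0.080), and Fosl2 (0.07 ± 0.02) was not called without replicate 2 opposite vector cells (0.06, adjusted p = 0.061) or replicate 2 opposite F133V cells (0.06, adjusted p = 0.079), and stood at 0.13 with library size alone. Fos was not called (−0.15 ± 0.07).

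With olaparib 7 of the 10 genes were called as higher and 1 as lower in macrophages opposite F133V cells, and 2 as higher and 4 as lower opposite vector cells. Opposite F133V cells 8 of 10 were called (7 higher, 1 lower), and 57.5% of the 14262 genes tested were called, 28.5% higher and 29% lower. Their median was 0.66, against 0.00 over all genes tested. Egr1 rose to 16.0, 16.4 and 16.2 CPM with olaparib, against 8.07, 10.0 and 8.38 CPM with DMSO (0.87 ± 0.07, adjusted p = 1.3e-15). Junb rose to 172, 174 and 169 CPM with olaparib, against 105, 105 and 104 CPM with DMSO (0.71 ± 0.02, adjusted p = 4.9e-33), and Fosl2 to 150.1, 154 and 150.0 CPM, against 87.7, 93.3 and 93.5 CPM (0.73 ± 0.02, adjusted p = 1.9e-30). The olaparib libraries lay above all DMSO libraries for each. Ier3 (0.96 ± 0.04), Fos (0.67 ± 0.08), Jund (0.43 ± 0.02) and Jun (0.22 ± 0.02) rose too, and Ier2 alone was called as lower (−0.16 ± 0.05). Opposite vector cells 6 of 10 were called (2 higher, 4 lower), and 28.4% of the 14262 genes tested were called, 14% higher and 14.5% lower. Egr1 fell to 12.1, 14.5 and 14.7 CPM with olaparib, against 28.2, 28.1 and 29.2 CPM with DMSO (−1.05 ± 0.06, adjusted p = 5.0e-20), and Fos to 10.3, 10.5 and 10.1 CPM, against 15.4, 16.9 and 15.4 CPM (−0.63 ± 0.07, adjusted p = 1.1e-10). Ier2 fell (−0.50 ± 0.05), while Ier3 (0.45 ± 0.03) and Jun (0.18 ± 0.02, or 0.10 with library size alone) rose. Junb, called at −0.05 ± 0.02, lost the call in 5 of the 6 fits that left out 1 library of these 2 groups, all but that without replicate 2 with olaparib, at −0.05 or, without replicate 3 with olaparib, −0.04. The call of Junb was also lost with DESeq2 (adjusted p = 0.12), RLE scaling (adjusted p = 0.074), no filter on low counts (adjusted p = 0.23) and protein-coding genes only (adjusted p = 0.051), and Junb stood at −0.13 with library size alone. Fosb, not called here (−0.57 ± 0.31), was called without replicate 3 with DMSO (−0.84, adjusted p = 0.049).

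Tested as a difference, the olaparib change opposite F133V cells minus that opposite vector cells was called for 8 of 10 genes, all positive, against 49.3% of all genes. Egr1 had the largest (1.92 ± 0.09, adjusted p = 6.5e-24), followed by Fos (1.30 ± 0.11, adjusted p = 5.5e-15), Fosl2 (0.79 ± 0.03, adjusted p = 1.5e-25) and Junb (0.77 ± 0.03, adjusted p = 4.0e-28). Egr1 and Fos moved in opposite directions opposite the 2 partners. Ier3 (0.51 ± 0.05), Jund (0.39 ± 0.03) and Ier2 (0.34 ± 0.07) had smaller differences, and Jun (0.04 ± 0.03) and Fosl1 (0.10 ± 0.21) were not called. Fosb (1.22 ± 0.45) was not called in 4 of the fits that left out 1 library. These were replicate 1 opposite vector cells with DMSO (0.84, adjusted p = 0.15) or olaparib (1.08, adjusted p = 0.058), replicate 1 opposite F133V cells with DMSO (1.08, adjusted p = 0.056) and replicate 3 opposite F133V cells with olaparib (1.04, adjusted p = 0.080).

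**Figure D4:**
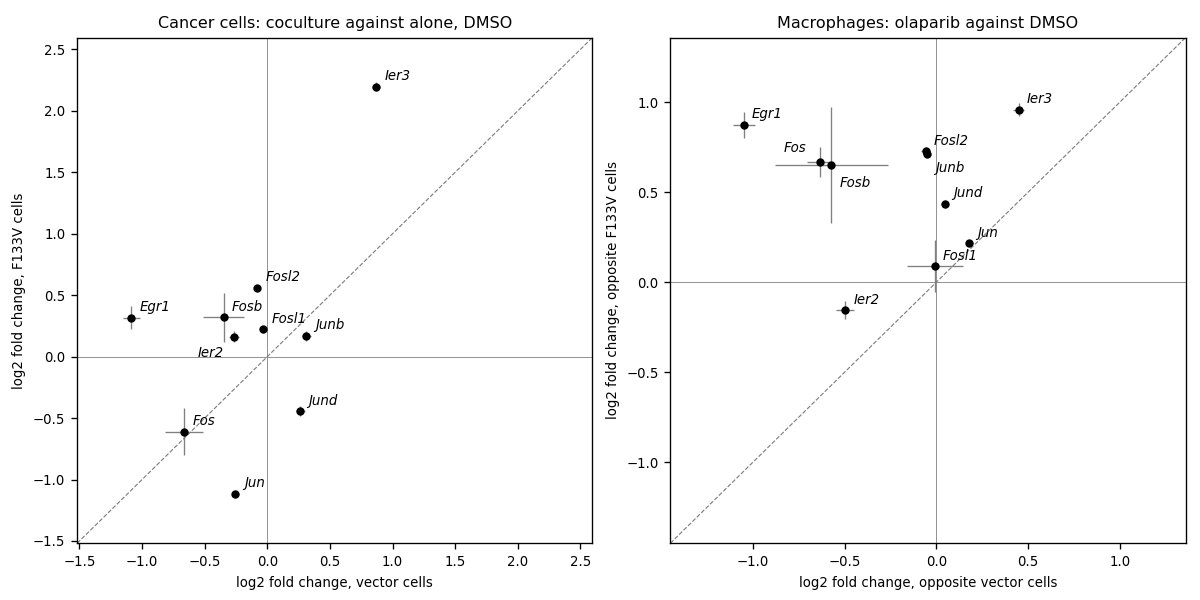
Each point is a gene; the log2 fold change in or opposite F133V cells (vertical) is plotted against that in or opposite vector cells (horizontal), with bars of 1 SE and a dashed line of equal change. Left, coculture against alone with DMSO, where Egr1 lies far left and Jun far below the line; right, olaparib against DMSO in macrophages, where Egr1 and Fos lie left of 0 and above it.

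To set the 2 cell types side by side, all 36 libraries were scaled together. Macrophages and cancer cells held different Fos proteins in message form. In cocultures of F133V cells with DMSO all 10 genes differed (5 higher, 5 lower in macrophages), and 86.3% of the 17295 genes tested were called, 43% higher and 43.2% lower. In cocultures of vector cells with DMSO all 10 differed as well (5 higher, 5 lower), and 82.2% of the 17295 genes tested were called, 39.8% higher and 42.4% lower. Fosl1 averaged 2.48 ± 0.423 CPM in macrophages and 244 ± 3.59 CPM in F133V cancer cells of the same cocultures (−6.62 ± 0.05, adjusted p = 3.1e-65), and 2.33 ± 0.196 CPM in macrophages against 93.5 ± 1.01 CPM in vector cancer cells. Fos averaged 6.09 ± 0.801 CPM in macrophages and 0.971 ± 0.202 CPM in F133V cancer cells (2.62 ± 0.14, adjusted p = 1.6e-24), and 16.6 ± 0.894 CPM in macrophages against 1.53 ± 0.0377 CPM in vector cancer cells (3.43 ± 0.11, adjusted p = 2.3e-35). Fosl1 was thus abundant in the cancer line and near 2 CPM in macrophages, while Fos was higher in macrophages. Within the Fos family of macrophages Fosl2 held 65.9% to 74.7% of the level per kb and Fos 18.8% to 28.8%.

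Jun (2.42 ± 0.03 in F133V and 0.98 ± 0.03 in vector cocultures) and Junb (1.31 ± 0.03 and 1.52 ± 0.03) were higher in macrophages. Jund was higher in macrophages in F133V cocultures (0.64 ± 0.04) and lower in vector cocultures (−0.43 ± 0.03), and Fosl2 was lower in F133V cocultures (−1.47 ± 0.03) and higher in vector cocultures (0.29 ± 0.03). Ier3 (−2.74 ± 0.04 and −1.68 ± 0.03) was lower in macrophages, and Egr1 was higher (0.55 ± 0.09 and 1.67 ± 0.07). Ier2 was lower in macrophages (−0.73 ± 0.04 and −0.14 ± 0.04, the second −0.24 with library size alone).

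Over all 12 groups the order of levels differed from gene to gene. Fos and Junb ran from macrophages opposite vector cells with DMSO (16.6 ± 0.894 CPM for Fos, 204 ± 0.285 CPM for Junb) through the other macrophage groups to the cancer groups. For Fos the 7 highest cancer groups, from 2.44 ± 0.249 CPM in vector cells alone with DMSO to 1.53 ± 0.0377 CPM in vector cells in coculture with DMSO, each overlapped their neighbour in the order, and F133V cells in coculture with DMSO lay below them at 0.971 ± 0.202 CPM. Jun was ordered most cleanly: apart from macrophages opposite vector cells with DMSO and opposite F133V cells with olaparib, which overlapped, no group overlapped its neighbour, from 228 ± 3.67 CPM in macrophages opposite vector cells with olaparib down to 32.0 ± 0.583 CPM in F133V cells in coculture with DMSO. Fosl1 formed 3 tiers, the F133V groups at 184 to 244 CPM, the vector groups at 79.1 to 96.0 CPM and the macrophages at 2.32 to 2.62 CPM, the last with overlap between all neighbours. Egr1 was highest in macrophages opposite vector cells with DMSO (29.6 ± 0.697 CPM), and the 4 F133V groups, which overlapped one another in order, were lowest at 5.17 to 6.26 CPM. Ier3 was highest in vector cells in coculture with olaparib (191 ± 3.35 CPM) and F133V cells in coculture with DMSO (190.1 ± 8.12 CPM), which overlapped, and lowest in macrophages opposite F133V cells with DMSO (28.5 ± 0.695 CPM). Fosb stayed under 3 CPM everywhere, and of its 8 lowest groups each overlapped the next. Ier2 spanned the narrowest range as a ratio, from 19.3 ± 0.563 CPM in macrophages opposite F133V cells with olaparib to 36.3 ± 0.552 CPM in vector cells alone with DMSO.

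Among other genes of the pathway, the further bZIP partners of AP-1 (Atf, Batf, Jdp2 and Maf genes, 10 of 12 measured) were mostly higher in F133V cancer cells. Atf3 and Maff are also in the list of other immediate early genes below, so the lists are not separate. Against vector cells in coculture with DMSO 9 were higher and 1 lower (median 1.03, against −0.06 over all genes tested). Mafg (1.43 ± 0.02), Maff (1.50 ± 0.03) and Mafk (1.17 ± 0.04), small Maf proteins that lack an activation domain, rose, and so did Atf7 (0.96 ± 0.03). In cells alone with DMSO 7 were higher and 1 lower (median 0.42, against 0.00 over all genes tested), among them Jdp2 (0.94 ± 0.03), a repressor that pairs with Jun, and Atf3 (0.92 ± 0.03), a stress-induced factor. Coculture against alone in F133V cells with DMSO gave 9 higher and 1 lower (median 0.90, against 0.01 over all genes tested), with Maff at 1.10 ± 0.03. Olaparib against DMSO in F133V cocultures gave 1 higher and 9 lower (median −0.84, against 0.02 over all genes tested), with Mafg at −1.01 ± 0.02 and Mafk at −1.10 ± 0.04. Of all genes tested, 33.7% were higher and 34% lower in F133V cells alone with DMSO, and 37.4% and 42% in coculture with DMSO. The shares were 35.6% and 34.8% for coculture in F133V cells with DMSO, and 39.3% and 37% for olaparib in F133V cocultures. These comparisons share groups, F133V cells in coculture with DMSO being in 3 of the 4. In macrophages opposite F133V cells with DMSO the list was mixed, 4 higher and 3 lower (median −0.04, against −0.01 over all genes tested). Of all genes 25.5% were higher and 28.1% lower there. Olaparib opposite F133V cells gave 6 higher and 3 lower (median 0.16, against 0.00), beside 28.5% and 29% of all genes.

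Other immediate early genes (29 of 30 measured in cancer cells) went both ways. In F133V against vector cells they were 10 higher and 13 lower alone with DMSO (median −0.07, against 0.00 over all genes tested) and 13 higher and 14 lower in coculture with DMSO (median −0.21, against −0.06 over all genes tested). Plk2, a polo-like kinase, rose in both (1.94 ± 0.03 and 1.57 ± 0.03), as did Ier5 (0.94 ± 0.03 and 1.80 ± 0.03), a regulator of heat shock factor. Coculture in F133V cells gave 11 higher and 13 lower (median −0.18, against 0.01 over all genes tested), with Csrnp1 up (1.66 ± 0.06) and the factor Klf2 down (−1.49 ± 0.06). Olaparib in F133V cocultures gave 10 higher and 13 lower (median −0.14, against 0.02 over all genes tested), with Plk3 at −1.03 ± 0.02 and Ier5 at −1.34 ± 0.03. Of all genes tested, 33.7% were higher and 34% lower in F133V cells alone with DMSO, and 37.4% and 42% in coculture with DMSO. The shares were 35.6% and 34.8% for coculture in F133V cells with DMSO, and 39.3% and 37% for olaparib in F133V cocultures. In macrophages with DMSO the list went mostly one way: 2 higher and 21 lower of 25 measured opposite F133V cells (median −0.63, against −0.01 over all genes tested). Of all genes tested there, 25.5% were higher and 28.1% lower. Atf3 (−0.47 ± 0.02), the kinase gene Sgk1 (−0.83 ± 0.04) and Egr2 (−1.61 ± 0.10), a relative of Egr1, fell. Olaparib opposite F133V cells gave 15 higher and 2 lower (median 0.34, against 0.00 over all genes tested), with Egr2 at 2.01 ± 0.09 and Atf3 at 0.91 ± 0.02. That olaparib comparison called 28.5% of all genes tested as higher and 29% as lower. Both macrophage comparisons use the libraries opposite F133V cells with DMSO.

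Upstream kinases and factors (22 genes of the ERK, JNK and SRF routes) were split in cancer cells. F133V cells against vector cells had 9 higher and 9 lower alone with DMSO (median 0.03, against 0.00 over all genes tested) and 11 higher and 9 lower in coculture with DMSO (median 0.09, against −0.06 over all genes tested). Elk3, an SRF partner that can repress Fos, fell in both (−0.94 ± 0.03 and −1.36 ± 0.03), and so did Mapk3, the kinase ERK1 (−0.49 ± 0.03 and −0.73 ± 0.03). Coculture in F133V cells gave 11 higher and 7 lower, with the kinase gene Rps6ka1 at 0.88 ± 0.04, and olaparib in F133V cocultures 8 higher and 11 lower, with Elk3 at 0.79 ± 0.03 and Elk4 at −0.74 ± 0.03 (medians 0.12, against 0.01 over all genes tested, and −0.09, against 0.02 over all genes tested). In macrophages none was higher and 13 were lower opposite F133V cells with DMSO (median −0.10, against −0.01 over all genes tested), among them Map3k1, a kinase above JNK (−0.62 ± 0.02), and olaparib opposite F133V cells gave 11 higher and 3 lower (median 0.07, against 0.00 over all genes tested), with Map3k1 at 0.76 ± 0.02. Of all genes tested, 33.7% were higher and 34% lower in F133V cells alone with DMSO, and 37.4% and 42% in coculture with DMSO. The shares were 35.6% and 34.8% for coculture in F133V cells with DMSO, and 39.3% and 37% for olaparib in F133V cocultures. In macrophages 25.5% were higher and 28.1% lower opposite F133V cells with DMSO. Olaparib opposite F133V cells called 28.5% higher and 29% lower.

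ERK feedback genes, which the pathway induces to restrain itself (11 measured in cancer cells), were lower in F133V cells alone with DMSO in 9 cases and higher in 0 (median −0.49, against 0.00 over all genes tested). Etv5 (−0.84 ± 0.03) and Etv4 (−0.86 ± 0.03), factors induced by ERK, and Spry4 (−0.75 ± 0.02), an inhibitor of receptor signalling, fell beside Egr1. In coculture with DMSO 4 were higher and 7 lower (median −0.17, against −0.06 over all genes tested), with the ERK phosphatase Dusp6 up (0.98 ± 0.03) and Etv5 down (−1.03 ± 0.03). Coculture in F133V cells gave 6 higher and 4 lower (median 0.09, against 0.01 over all genes tested), with Dusp6 at 1.03 ± 0.03. Olaparib in F133V cocultures gave 7 higher and 3 lower (median 0.42, against 0.02 over all genes tested), with the phosphatase gene Dusp5 at 1.46 ± 0.05 and Dusp6 at −0.87 ± 0.03. In macrophages 1 was higher and 6 lower of 9 opposite F133V cells with DMSO (median −0.21, against −0.01 over all genes tested), and olaparib opposite F133V cells gave 5 higher and 1 lower (median 0.17, against 0.00 over all genes tested), with Dusp5 at −0.95 ± 0.10 and 1.18 ± 0.09. Of all genes tested, 33.7% were higher and 34% lower in F133V cells alone with DMSO, and 37.4% and 42% in coculture with DMSO. The shares were 35.6% and 34.8% for coculture in F133V cells with DMSO, and 39.3% and 37% for olaparib in F133V cocultures. In macrophages 25.5% were higher and 28.1% lower opposite F133V cells with DMSO. Olaparib opposite F133V cells called 28.5% higher and 29% lower.

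Genes described in textbooks as AP-1 targets (16 of 19 measured in cancer cells) were mostly higher in F133V cells in coculture with DMSO, 13 higher and 3 lower (median 1.12, against −0.06 over all genes tested). Ptgs2, cyclooxygenase-2, stood at 3669, 3731 and 3838 CPM in F133V cells, against 532, 569 and 553 CPM in vector cells (2.77 ± 0.03). Ccnd1, the cyclin that drives entry into S phase, went the other way, with 91.7, 98.6 and 94.1 CPM in F133V cells against 480.0, 487 and 473 CPM in vector cells (−2.34 ± 0.02), and Cd44, a hyaluronan receptor, fell too (−1.29 ± 0.02). In cells alone with DMSO 8 were higher and 6 lower (median 0.17, against 0.00 over all genes tested), with Plaur, the urokinase receptor, at 1.04 ± 0.03. Coculture in F133V cells gave 11 higher and 3 lower (median 0.63, against 0.01 over all genes tested), with the protease gene Mmp3 at 3.01 ± 0.10. Olaparib in F133V cocultures gave 4 higher and 9 lower (median −0.35, against 0.02 over all genes tested), with Ccnd1 at 1.81 ± 0.02 and Ptgs2 at −1.82 ± 0.03. In macrophages 0 were higher and 10 lower of 12 opposite F133V cells with DMSO (median −0.48, against −0.01 over all genes tested), among them Plau, the urokinase (−0.52 ± 0.02), and Vegfa, the vascular growth factor (−0.76 ± 0.02). Olaparib opposite F133V cells gave 10 higher and 1 lower (median 0.52, against 0.00 over all genes tested), with Plau at 0.56 ± 0.02 and Vegfa at 1.04 ± 0.02. Of all genes tested, 33.7% were higher and 34% lower in F133V cells alone with DMSO, and 37.4% and 42% in coculture with DMSO. The shares were 35.6% and 34.8% for coculture in F133V cells with DMSO, and 39.3% and 37% for olaparib in F133V cocultures. In macrophages 25.5% were higher and 28.1% lower opposite F133V cells with DMSO. Olaparib opposite F133V cells called 28.5% higher and 29% lower.

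Likeness of pattern was described over the 8 cancer groups by the correlation of log2 mean CPM, among 9888 genes of at least 5 CPM in their highest group, for the 8 members that reached that level in a cancer group (Fos and Fosb did not). The 8 points share libraries and scaling, so r is a description and no p is given. Closest to Fosl1 were Dgkh (r = 0.993) and Slc26a11 (0.992), and to Fosl2 Gab1 (0.986) and Tbc1d17 (0.986). For Jun they were Rab7b (0.994) and Ankrd49 (0.992), for Jund Cpsf3l (0.996) and Rita1 (0.993), and for Junb H2-K2 (0.978) and Itpk1 (0.977). Egr1 ran with Tnc (0.980) and Amot (0.979), Ier2 with Stk40 (0.950) and Gpt2 (0.946), and Ier3 with Nrp2 (0.984) and Pramef8 (0.983). Among the members themselves Fosl1 and Fosl2 ran together (0.926), Fosl2 ran opposite to Jund (−0.975), and Fos followed Jun (0.850).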

How the data were processed

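RNA-seq was made from total RNA in 24 cancer and 12 macrophage libraries. The authors deposited 1 table of raw read counts per library (46078 genes and 5 summary lines, which were left out); per the submitters' processing notes, STAR, TopHat, HTSeq and DESeq2 were used on build GRCm38, with versions, aligner settings and strand not given in the sources used here. Groups came from the samples' group entry in the labels, also where the title or genotype entry of macrophages differs from it. Cancer (15962 genes tested) and macrophage libraries (14262) were fitted separately, and all 36 together (17295) for cell types, in edgeR 4.0.16 under R 4.3.3 (TMM, filterByExpr at a minimum count of 10, quasi-likelihood F test, Benjamini-Hochberg), with SE as the log2 fold change divided by the square root of F. There were 18 comparisons of 2 groups and 5 interactions. The 10 genes, the lists and the tests were chosen with earlier results of these data known. Text names all 10 genes, up to 4 called genes per list and comparison by adjusted p, and 2 genes by likeness for each of the 8 members at 5 CPM or more in a cancer group. The fits were tested on simulated data. Exon lengths came from GENCODE M21 and promoters from RefSeq. Alternatives were DESeq2 1.42.0, other scalings, no filter, only the groups compared, protein-coding genes, a replicate block and left-out libraries. Figures used matplotlib 3.10.9.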

Additional observations from a re-analysis of the deposited data

Results flagged for a closer look

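In 40 of 50 values (10 genes in 5 interactions) a gene's change differed between 2 groups under the same contrast, as an interaction in edgeR with an adjusted p under 0.05. The same rule called 24.2% of all genes for genotype by olaparib alone and 67.4% in coculture, 62.7% for genotype by coculture, 64.5% for coculture by olaparib in F133V cells and 49.3% for partner by olaparib in macrophages. Interactions among cancer cells share groups and are not independent.

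The olaparib change in F133V cells minus that in vector cells, in cultures without macrophages, was 0.60 for Fos, −0.11 for Fosl2, 0.50 for Jun, 0.24 for Junb, 0.17 for Jund, 0.31 for Egr1, 0.26 for Ier2 and −0.47 for Ier3 (log2). Adjusted p ran from 1e-11 (Jun) to 0.049 (Egr1). In coculture the same difference was 0.75 for Fos, 0.95 for Fosb, −0.23 for Fosl1, −0.45 for Fosl2, 1.38 for Jun, 0.63 for Junb, 0.81 for Jund and −1.08 for Ier3. Adjusted p ran from 1.2e-25 (Jun) to 0.0069 (Fos).

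The coculture change in F133V cells minus that in vector cells, with DMSO, was 0.67 for Fosb, 0.25 for Fosl1, 0.64 for Fosl2, −0.86 for Jun, −0.14 for Junb, −0.71 for Jund, 1.40 for Egr1, 0.43 for Ier2 and 1.33 for Ier3. Adjusted p ran from 3.1e-24 (Ier3) to 0.024 (Fosb). In F133V cells the olaparib change in coculture minus that alone was −0.36 for Fosl1, −0.56 for Fosl2, 0.97 for Jun, 0.16 for Junb, 0.62 for Jund, −0.16 for Ier2 and −0.97 for Ier3. Adjusted p ran from 2.6e-20 (Jun) to 0.022 (Ier2).

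In macrophages the olaparib change opposite F133V cells minus that opposite vector cells was 1.30 for Fos, 1.22 for Fosb, 0.79 for Fosl2, 0.77 for Junb, 0.39 for Jund, 1.92 for Egr1, 0.34 for Ier2 and 0.51 for Ier3. Adjusted p ran from 4e-28 (Junb) to 0.02 (Fosb).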

How the results depend on the processing

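All counts of values in this section leave out 26 results that were not called and changed by under 0.1 (log2, either direction). How often those changed sign was not counted. Of 1383 called values of the 10 genes under alternatives other than left-out libraries, 1339 kept call and direction, 41 lost the call and 3 reversed. Of 149 values not called, 6 became called and 2 reversed. Without 1 library, 1288 of 1344 called values kept the call, 56 lost it and none reversed, and 3 of 144 not called became called. Scaling by library size alone gave the 5 reversals counted: F133V against vector in coculture with DMSO for Ier3 (−0.0729), olaparib in F133V cocultures for Egr1 (0.11, not called), coculture in F133V cells with DMSO for Ier2 (−0.0465) and Junb (−0.0416), and the genotype by olaparib interaction in coculture for Ier2 (0.0819, not called). It left 5 of 10 called for coculture in F133V cells with DMSO (9 with TMM). It moved the share of higher calls among all calls by over 10 points in 14 comparisons, to 34.7% against 47.1% with TMM for genotype in coculture with DMSO, 34.6% against 50.6% for coculture in F133V cells with DMSO, 63.5% against 51.5% for olaparib in F133V cocultures, 59.3% against 47.5% for partner in macrophages with DMSO, 36.7% against 49.6% for olaparib in macrophages opposite F133V cells and 14.7% against 49.1% opposite vector cells. The other 8 were olaparib in F133V cells alone (74.6% against 50.4%), coculture with olaparib in F133V cells (37.4% against 50.2%), coculture with DMSO in vector cells (42.2% against 55.7%), partner in macrophages with olaparib (75.6% against 49.9%), genotype by olaparib alone (82.7% against 54.9%) and in coculture (65.9% against 52.6%), genotype by coculture (35.7% against 48.1%) and coculture by olaparib in F133V cells (61.4% against 51.1%). The cause was not tested. Without the 2 vector libraries with more Lyz2, olaparib in vector cells alone called fewer of the 10 and fewer of all genes. The genotype by olaparib interaction in cells alone also called fewer of the 10 there. Those fits keep 1 library of that group. The same interaction called 5 of 10 with no filter on low counts and 5 to 7 without 1 library, against 8 in the main fit. For these counts of members under alternatives, the shares of all genes called are not given here. Same-numbered libraries deviated with correlations of −0.047 to 0.058 among cancer cells and −0.017 to 0.036 among macrophages, so no pairing by number was seen within a cell type. Cancer libraries were not set against macrophage libraries in this way. Pairing across a coculture was therefore not tested, and the main comparisons between cell types took the libraries as unpaired. With the replicate block 204 of the 204 values counted kept call and direction. Fosb and Fos, at under 3 CPM in cancer cells, had the widest errors there.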
